A study of Homo sapiens with 12 samples.

Results

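The effect of the thyroid hormone T3 was compared between a pool of MDA-MB-468 cells carrying added thyroid hormone receptor beta and a pool carrying an empty vector, gene by gene, as a difference of differences. MDA-MB-468 is an established human breast cancer line of the basal-like type. The TRB pool carried the vector pCDH-TRB and the EV pool the vector pCDH-EV. Both pools were kept for 24 hours in medium with charcoal-stripped serum, which is low in steroid and thyroid hormones, and then received 10 nM T3 or the vehicle (NaOH) for 24 hours. The 4 groups are called EV vehicle, EV T3, TRB vehicle and TRB T3. All 12 of the 12 RNA sequencing libraries entered the comparison, 3 in each group. Each vector is represented by 1 stable pool, so a difference between TRB and EV libraries is one between those pools. Nothing in the labels ties the 3 libraries of a group to separate cultures, and p-values here rest on the variation among these libraries alone, some of which may be technical.

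T3 acts through 2 nuclear receptors, encoded by THRA and THRB, which sit on DNA mostly as partners of a retinoid X receptor. Without hormone they recruit corepressors such as NCOR1 and lower the expression of their target genes, and with hormone they exchange these for coactivators and raise it. Other genes fall with T3, by routes that are less well defined. A gene can therefore respond through the receptors a cell already has, respond further when more receptor is added, or respond only then, and the interaction tests whether the T3 effect differs between the pools.

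For each gene the interaction is the log2 fold change of T3 over vehicle in TRB cells minus that in EV cells. A positive value means that the T3 effect was the more positive one in TRB cells. Of 14549 genes tested, 3470 (23.9%) had an interaction at an adjusted p below 0.05 by edgeR's quasi-likelihood test, the threshold used for every call. The interaction was more positive for 1783 genes (12.3%) and more negative for 1687 (11.6%), and 602 of the 3470 reached an absolute value of 1, 368 positive and 234 negative. By comparison T3 changed 660 genes (4.54%) in EV cells, where 2.84% rose and 1.7% fell, and 6456 (44.4%) in TRB cells, where 22.4% rose and 21.9% fell. The median interaction over all genes tested was -0.002 and its median standard error 0.12. DESeq2 called 2384 genes, and 1664 were called when every library was thinned to the depth of the shallowest.

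The genes with a called interaction were sorted by their T3 effects in the 2 pools. A gene was amplified where T3 changed it in both pools in the same direction and more strongly in TRB cells, which held for 333 genes. It was new where T3 changed it in TRB cells and the EV effect did not pass, which held for 2943 genes. It was reversed where both effects passed with opposite signs, for 19 genes, and lost where the EV effect passed and the TRB effect did not, for 40 genes. Of the genes with a called interaction, 0 had effects that passed in both pools in the same direction with the weaker one in TRB cells. The other 135 genes had an interaction but no called effect in either pool. Since the sorting uses the effects themselves, the sizes given by class are descriptions.

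**Figure D1:**
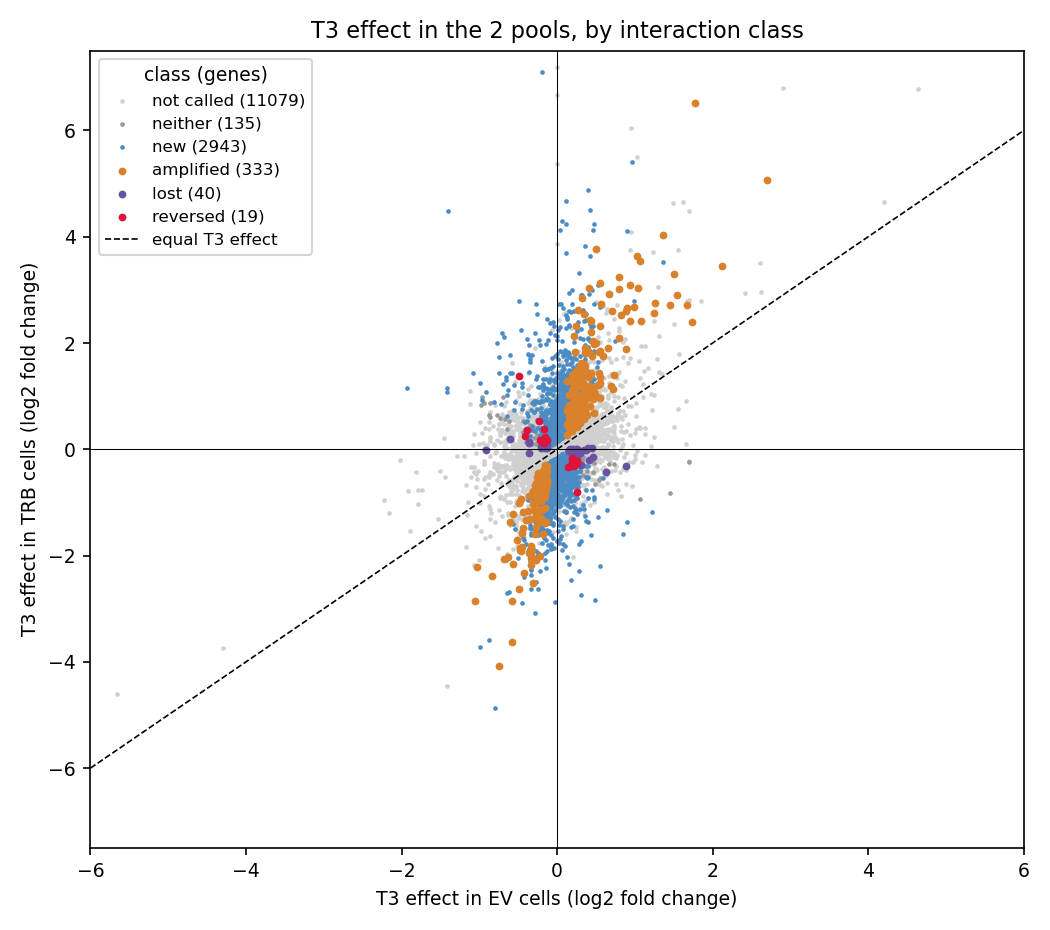
T3 effect in EV cells (x axis) against that in TRB cells (y axis) for 14549 genes, both as log2 fold changes, with a point per gene coloured by class. The 333 amplified genes lie on the far side of the dashed line of equal effects, the 2943 new genes form a column around an EV effect of 0, and the 19 reversed and 40 lost genes stay close to the centre.

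Promoters are shown for 1 gene of each kind that the results turn on, so that the letters upstream of genes with unlike receptor dependence can be set side by side. KLF9 is a textbook T3 target, C15orf59 was amplified, APLN new, and RASD2 and LBH reversed in each direction. Each sequence is the 250 bases before the start given by RefSeq in build GRCh38.p14, read 5′ to 3′ along the gene. The windows are chr9:70414658-70414907 (minus strand) for KLF9, chr15:73753352-73753601 (minus strand) for C15orf59, chrX:129654957-129655206 (minus strand) for APLN, chr22:35532556-35532805 (plus strand) for RASD2 and chr2:30231284-30231533 (plus strand) for LBH. Capitals mark the hexamer AGGTCA, the core letters that thyroid hormone receptors recognise, or TGACCT, the same on the other strand.
KLF9: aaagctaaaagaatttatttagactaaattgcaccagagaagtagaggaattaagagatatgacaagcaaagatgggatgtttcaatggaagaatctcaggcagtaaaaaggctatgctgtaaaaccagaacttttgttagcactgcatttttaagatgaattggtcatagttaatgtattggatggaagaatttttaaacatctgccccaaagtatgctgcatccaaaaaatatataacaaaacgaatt
C15orf59: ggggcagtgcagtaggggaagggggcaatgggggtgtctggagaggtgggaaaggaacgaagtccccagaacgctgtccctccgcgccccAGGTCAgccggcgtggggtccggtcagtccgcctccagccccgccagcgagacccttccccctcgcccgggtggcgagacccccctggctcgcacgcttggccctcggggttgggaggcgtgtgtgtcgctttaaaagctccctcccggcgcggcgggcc
APLN: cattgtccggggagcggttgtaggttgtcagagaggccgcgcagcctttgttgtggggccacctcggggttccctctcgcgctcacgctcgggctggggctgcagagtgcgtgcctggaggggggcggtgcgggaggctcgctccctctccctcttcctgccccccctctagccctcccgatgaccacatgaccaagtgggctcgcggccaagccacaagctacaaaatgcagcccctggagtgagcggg
RASD2: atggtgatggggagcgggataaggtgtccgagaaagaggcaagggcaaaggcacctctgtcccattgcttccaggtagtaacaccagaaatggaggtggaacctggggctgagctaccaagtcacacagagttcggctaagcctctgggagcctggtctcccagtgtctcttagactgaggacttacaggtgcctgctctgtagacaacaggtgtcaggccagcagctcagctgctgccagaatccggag
LBH: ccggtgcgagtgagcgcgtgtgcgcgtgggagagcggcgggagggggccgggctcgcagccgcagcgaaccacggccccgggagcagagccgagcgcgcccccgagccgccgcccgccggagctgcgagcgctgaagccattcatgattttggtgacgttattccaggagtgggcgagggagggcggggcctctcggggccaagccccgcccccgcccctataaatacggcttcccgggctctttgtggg

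In these 5 sequences the hexamer stood once, 160 bases before the RefSeq start of C15orf59. GENCODE, used for the gene coordinates, starts C15orf59 at 73752747 (minus strand) and RASD2 at 35540868 (plus strand). Those starts lie downstream of the windows, which follow RefSeq and do not adjoin them. RCSD1, OLFML2B, NFATC2 and HIST1H3F, the other genes taken by the same rule, had none in the window from 250 bases before to 50 after the start. Over 10434 tested genes with a promoter entry, 9.87% held the hexamer on either strand. The share was 11.2% of amplified (17 of 152) and 10.5% of new genes (119 of 1138) with a more positive interaction. It was 5.43% (5 of 92) and 9.24% (107 of 1158) of those with a more negative one. The differences between these shares were not tested. Over all 27305 promoters in the table the share was 13.9%. Of the genes tested, 0 had 2 copies in the same direction 4 bases apart, the spacing of the classical response element. A match here is a run of letters and says nothing of binding, and receptors also act from sites outside such windows.

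Some properties of the libraries moved with the groups. Counts assigned to genes were 4241863 to 8904361 in the 6 vehicle libraries and 10323437 to 11955825 in the 6 T3 libraries, with no overlap. The 2 mitochondrial ribosomal RNAs together stood at 3226 to 27295 CPM (counts scaled to a common library total) in EV vehicle and 7040 to 17921 in TRB vehicle libraries, against 496 to 660 in EV T3 and 579 to 917 in TRB T3 libraries. Of 15 ribosomal and other structured RNAs tested, 6 fell with T3 in EV cells (1.7% of all genes did) and 4 in TRB cells (21.9% did), none rose, and 0 had a called interaction by edgeR (the smallest adjusted p was 0.0601, for RNU6ATAC). Their median interaction was 0.54. The calls at equal depth are given above; whether the differences in structured RNA enter the interaction was not tested. Markers of basal breast cells were present in every group (8 of 8 above 1 CPM in EV and in TRB vehicle, 7 of 8 in TRB T3, where vimentin was below). Of the tested ones 1 had a more positive and 5 a more negative interaction, and their summed level was 7384 to 7682 CPM in EV vehicle, 6855 to 7433 in EV T3, 5929 to 5957 in TRB vehicle and 4760 to 4961 in TRB T3 libraries. All 5 general epithelial markers were above 1 CPM in every group (1 more positive and 2 more negative). Of 6 hormone receptor positive luminal markers 4 were above 1 CPM, with 2 interactions in each direction, and PGR, the progesterone receptor gene, was at 0 in all libraries. Of 7 fibroblast and endothelial markers 2 or 3 were above 1 CPM, summing to 16.7 to 27.3 CPM, with COL1A2 at 0 and 1 more positive interaction among the 3 tested. COL1A1 averaged 15 to 20.3 CPM by group and made up most of the sum. The called interaction was that of CDH5 (2.57 ± 0.65), which averaged 3.67 CPM in TRB T3 and at most 1.18 in the other groups. At equal depth it was 0.83 and did not pass (adjusted p = 0.72). Of 6 thyroid follicular markers at most 1 was above 1 CPM in any group. It was SLC5A5, the sodium iodide symporter gene, with 2 counts in EV vehicle, 4 in EV T3, 1 in TRB vehicle and 38 in TRB T3 libraries. That is too few to pass the filter on low counts, and the gene was not tested.

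THRB itself, the gene of the added receptor, stood at 43.6, 42.6 and 44.2 CPM in EV vehicle, 39.9, 37.8 and 37.7 in EV T3, 144, 136 and 141 in TRB vehicle and 311, 344 and 331 in TRB T3 libraries. The groups did not overlap, and the vector label of every library was matched by its THRB level. The T3 effect on THRB in EV cells did not pass (-0.18 ± 0.07, adjusted p = 0.147), so THRB is no check of the treatment label there. With the interaction at 1.41 ± 0.08 (SE; adjusted p = 1.14e-23), the pools were further apart with T3 than with vehicle, so the T3 effects compared here were measured at receptor transcript levels that differed with treatment. Reads from the vector and from the cells' own gene cannot be told apart in these counts. THRA, which encodes the other T3 receptor, moved the other way: 15.6, 14.2 and 14.4 CPM in EV vehicle, 14.2, 13.2 and 12.1 in EV T3, 18.7, 16 and 17.9 in TRB vehicle and 6.43, 6.65 and 6.9 in TRB T3 libraries. Its interaction was -1.23 ± 0.17 (adjusted p = 9.67e-09), and the TRB T3 libraries lay below the other 9.

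Among receptors and their partners, 5 of 13 tested genes had a more positive and 4 a more negative interaction, and all 9 were new. THRB, the gene of the added receptor, is 1 of the 5, and THRA is among the 4. Over all genes tested 12.3% were more positive and 11.6% more negative. RARA, a retinoic acid receptor, had an interaction of 0.92 ± 0.09 and PPARD, a fatty acid-sensing receptor, 0.62 ± 0.08. The partner RXRA stood at -0.04 (95% interval -0.21 to 0.13) and the corepressor NCOR1 at 0.09 (-0.03 to 0.21); neither passed. Of 10 corepressor genes 2 (20%) were more positive and 2 (20%) more negative, led by HR, which is also a T3 target. The more negative ones were TBL1X, which missed the threshold in 12 of 20 alternatives, and SIN3A, which missed it in 4. Of 15 coactivator genes 4 were more positive and 1 more negative, with PPARGC1B at 1.24 ± 0.12, NCOA1 amplified downward at -0.20 ± 0.07 and MED1 lost at 0.22 ± 0.07. PPARGC1A rose in TRB cells (5.38, adjusted p = 3.27e-17 by edgeR). Its interaction could not be estimated with any precision (SE 9352), and it counts as not called. EP300, also more positive (0.18 ± 0.06), missed the threshold in 8 of 20 alternatives. Of 20 alternatives NCOA1 missed the threshold in 6 (DESeq2, equal depth, and without EV vehicle replicate 2, TRB T3 replicate 3, TRB vehicle replicate 1 or TRB vehicle replicate 3). MED1 missed it in 5 (DESeq2, no filter, equal depth, and without EV vehicle replicate 3 or TRB T3 replicate 2). Hormone transport and metabolism split, 3 of 9 in each direction. SULT1A1, a sulfotransferase that inactivates thyroid hormones, was amplified (EV 0.33, TRB 1.51), and DIO2, which makes T3 from its precursor, was new and fell (EV 0.08, TRB -1.78); its interaction of -1.86 ± 0.40 was -0.88 at equal depth (adjusted p = 0.519). DIO1, the other activating deiodinase, had 11 counts in all and was not tested.

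Genes known to respond to T3 in other tissues leaned to a more positive interaction: 13 of 26 tested, against 12.3% of all genes, with 1 more negative. Of these 14 genes 7 were amplified and 7 new, and the list's median interaction was 0.58. The list was chosen with earlier results of these data known, so its share is a description. PPARGC1A, described above, is also on it and counts as not called. KLF9, a transcription factor induced by T3 in many cell types, already responded in EV cells. It stood at 2.41, 3.76 and 2.68 CPM in EV vehicle, 10.6, 14.4 and 14 in EV T3, 2.5, 2.91 and 1.91 in TRB vehicle and 26.7, 27.1 and 27.5 in TRB T3 libraries. The vehicle groups of the pools overlapped and the T3 groups did not. The fold change was 2.13 ± 0.18 in EV and 3.45 ± 0.15 in TRB cells on the log2 scale, and the interaction 1.32 ± 0.29 (adjusted p = 0.000276). With counts thinned to equal depth it was of like size, 1.41, and did not pass (adjusted p = 0.166).

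HR, the corepressor hairless, had a far smaller EV effect than KLF9. It stood at 88.3, 86.7 and 87.4 CPM in EV vehicle and 95.9, 97.7 and 94.6 in EV T3 libraries, a difference that did not pass (0.14 ± 0.05, adjusted p = 0.135). The EV groups did not overlap, and the 95% interval of the EV effect was 0.03 to 0.24. It stood at 58.8, 62 and 64.1 CPM in TRB vehicle and 210, 231 and 218 in TRB T3 libraries, and the interaction was 1.7 ± 0.07 (adjusted p = 5.84e-31). TRB vehicle libraries lay below both EV groups and TRB T3 libraries above them. FURIN, a proprotein convertase, was new in the same way (EV 0.13, TRB 2.48). UCP2, a mitochondrial carrier, HIF1A, the hypoxia-inducible factor, and CCND1, the gene of cyclin D1, were amplified, with interactions of 1.2 ± 0.06, 1.2 ± 0.06 and 1.09 ± 0.06. THRSP, a lipogenic T3 target, had 4, 18, 19 and 364 counts in the 4 groups in the order EV vehicle, EV T3, TRB vehicle and TRB T3. Its interaction of 2.48 ± 0.98 did not pass (adjusted p = 0.057), and did without EV T3 replicate 2 (0.0273).

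The 333 amplified genes comprised 211 with a more positive and 122 with a more negative interaction. Among the 211 the median T3 effect was 0.29 in EV cells and 1.03 in TRB cells, and among the 122 it was -0.24 and -0.90. The median ratio of the TRB to the EV effect was 3.32 over all 333. In 182 of the 211 all 3 TRB T3 libraries lay above the other 9, which held for 14% of all genes tested, and in 114 of the 122 they lay below, against 13.1% of all genes tested; the choice of these genes favours both. By gene type 324 of the 333 were protein-coding. The count fell to 180 when EV vehicle replicate 3 was left out and to 221 when EV T3 replicate 2 was; a call in EV cells is part of the rule. It was 217 by DESeq2 and 96 at equal depth.

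The amplified increases with the highest lower bound on the interaction were C15orf59, RCSD1, MGLL, BMF and CD14. C15orf59, also named INSYN1, a gene of inhibitory synapses on chromosome 15 (73735431 to 73752747), stood at 1.68, 1.1 and 1.15 CPM in EV vehicle, 4.24, 4.52 and 4.15 in EV T3, 0.526, 0.448 and 0.41 in TRB vehicle and 47.3, 41.9 and 40.9 in TRB T3 libraries. TRB cells were thus lowest without T3 and highest with it, and no 2 groups overlapped. Its interaction was 4.74 ± 0.51 (adjusted p = 6.63e-12), on 11 counts in the TRB vehicle group. RCSD1, which encodes a partner of actin capping protein, rose by 0.50 ± 0.14 in EV and 3.78 ± 0.10 in TRB cells.

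MGLL, the monoacylglycerol lipase that completes the breakdown of stored fat, stood at 63.3, 57.4 and 62.6 CPM in EV vehicle, 80, 79.6 and 82.9 in EV T3, 41.4, 38.1 and 43.9 in TRB vehicle and 338, 337 and 329 in TRB T3 libraries. It followed the order of C15orf59, with an interaction of 2.62 ± 0.08 (adjusted p = 4.75e-39). BMF, a BH3-only gene that promotes apoptosis, stood at 18.3, 12.2 and 11.7 CPM in EV vehicle, 18.5, 19.7 and 20.7 in EV T3, 15, 16.9 and 15.2 in TRB vehicle and 140, 140 and 135 in TRB T3 libraries. Its vehicle levels overlapped between the pools. CD14, the co-receptor for bacterial lipopolysaccharide, stood at 32.7, 29.1 and 28 CPM in EV vehicle, 49.7, 51.9 and 52.2 in EV T3, 21.7, 19.5 and 17.5 in TRB vehicle and 184, 194 and 181 in TRB T3 libraries, and it also had the order of MGLL. CD14 also marks monocytes. It is 1 of 6 leukocyte markers and made up most of their sum (28.4 to 33.1 CPM in EV vehicle, 50.4 to 53.2 in EV T3, 18 to 22.3 in TRB vehicle and 184 to 197 in TRB T3), so the sum is no separate sign of leukocytes. Of the other markers PTPRC, the leukocyte common antigen, averaged at most 0.32 CPM in any group, CD3E and CD68 were below 0.1 CPM, and ITGAM averaged 2.71 CPM in TRB T3 and at most 0.505 elsewhere. The part of other cells in the CD14 result was not tested beyond these levels.

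Amplified decreases were led by SLITRK6, EDN2, FGFBP1, RGS2 and SLC4A4. EDN2, the vasoactive peptide endothelin 2, stood at 27, 27.1 and 24.6 CPM in EV vehicle, 17.9, 19.2 and 15 in EV T3, 37.2, 35.4 and 36.6 in TRB vehicle and 3, 2.6 and 3.23 in TRB T3 libraries. The pattern was the mirror image of MGLL: TRB cells were highest without T3 and lowest with it, and the interaction was -3.03 ± 0.16 (adjusted p = 2.53e-25). SLITRK6, a neuronal transmembrane protein, had the same order, with a mean T3 effect of -0.74 ± 0.15 in EV and -4.09 ± 0.17 in TRB cells. FGFBP1, a carrier that releases fibroblast growth factors from the matrix, stood at 35.9, 33.6 and 31.1 CPM in EV vehicle, 26.2, 27 and 26.8 in EV T3, 30.6, 31.9 and 30.3 in TRB vehicle and 5.31, 4.85 and 6.02 in TRB T3 libraries. RGS2, which switches off G protein signalling, had an interaction of -2.14 ± 0.17. SLC4A4, a sodium bicarbonate cotransporter, had -2.27 ± 0.27, on 37 counts in the TRB T3 group.

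**Figure D2:**
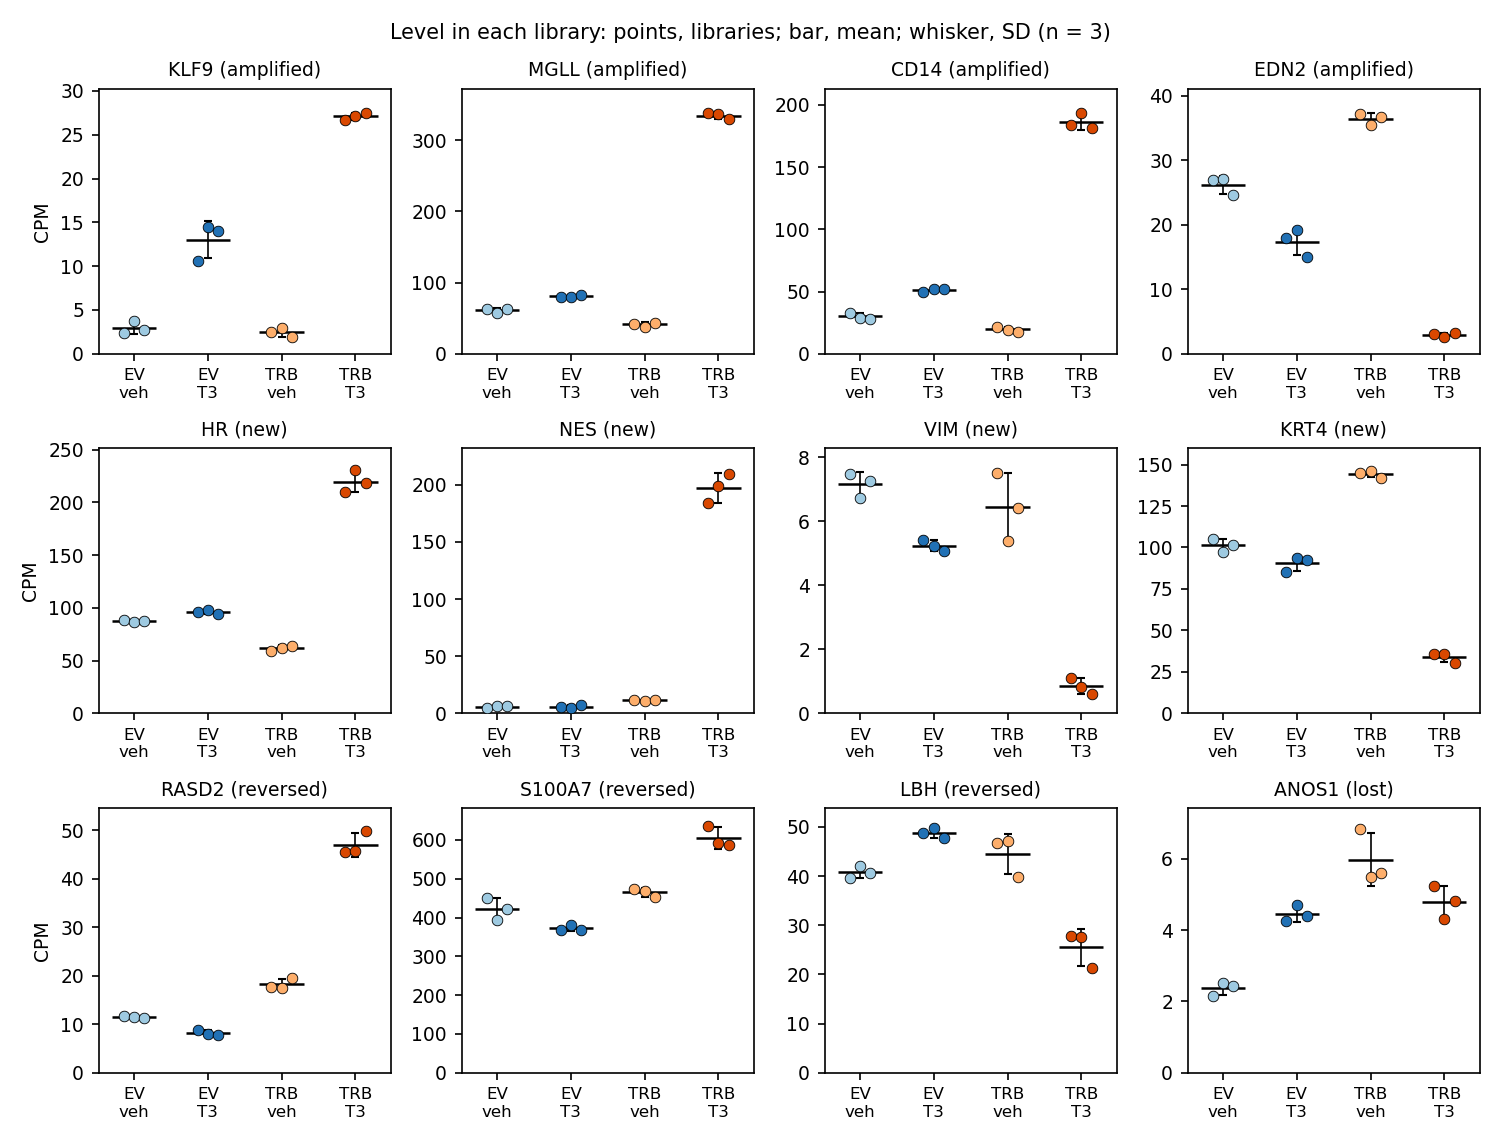
Level in CPM (y axis, linear from 0) in each library of the 4 groups (x axis) for 12 genes of the 4 classes, where points are libraries, bars means and whiskers SD over 3 libraries. MGLL and CD14 are lowest in TRB vehicle and highest in TRB T3, EDN2 shows the opposite order, and RASD2 and LBH move in opposite directions in the 2 pools.

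The 2943 new genes were evenly divided, 1473 with a more positive and 1470 with a more negative interaction. An EV effect that did not pass is not shown to be 0. For 2622 of the 2943 the 95% interval of the EV effect lay within 1.5-fold in either direction, and for 443 of these the TRB interval lay wholly beyond 1.5-fold. The EV estimate had the sign opposite to the TRB estimate in 1232, and 451 had an unadjusted EV p below 0.05. The bound was weaker where the TRB effect was large: of 496 new genes with a TRB effect of 1 or more on the log2 scale (309 up, 187 down), 237 (47.8%) had an EV interval within 1.5-fold, and of 112 with an effect of 2 or more (82 up, 30 down) 17 (15.2%) did. Where the TRB effect was largest, the EV effect was thus least often bounded. The class held 2091 genes by DESeq2 and 1494 at equal depth.

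New increases were led by APLN, OLFML2B, NES, IL6R and RP1L1. APLN, which encodes the peptide hormone apelin (chromosome X, 129645259 to 129654937), had 5, 8 and 8 counts in EV vehicle, EV T3 and TRB vehicle libraries and 1642 in TRB T3 libraries. In CPM it stood at 0, 0.47 and 0.255, then 0.193, 0.261 and 0.249, then 0.263, 0.336 and 0.41, and then 48.6, 51.2 and 44.1 in those groups. The first 3 groups overlapped and TRB T3 stood apart. The ratio of T3 to vehicle counts, corrected for depth, was 143 in TRB cells (95% counting interval 72.4 to 332) and 0.867 in EV cells (0.25 to 3.37), so the EV data leave a wide range.

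NES, the intermediate filament nestin of stem and progenitor cells, is better bounded. It stood at 4.81, 6.1 and 5.99 CPM in EV vehicle, 5.78, 4.87 and 6.97 in EV T3, 11.4, 10.5 and 11.9 in TRB vehicle and 184, 199 and 210 in TRB T3 libraries. The EV groups overlapped, with an EV effect of 0.03 (95% interval -0.32 to 0.39), and the interaction was 4.10 ± 0.23 (adjusted p = 1.52e-24). IL6R, the interleukin 6 receptor, had 11, 40, 15 and 937 counts in the 4 groups and an interaction of 4.45 ± 0.70. Its EV effect of 0.96 (0.07 to 1.86) had an interval above 0 that did not pass after adjustment (adjusted p = 0.26). OLFML2B, a matrix protein, had 9, 6, 8 and 268 counts and RP1L1, a photoreceptor gene, 13, 25, 7 and 205.

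New decreases were led by SNCAIP, ADAMTS1, VIM, MARVELD1 and KRT4. KRT4, a keratin of stratified epithelia, stood at 105, 97.5 and 102 CPM in EV vehicle, 85.4, 93.4 and 92.5 in EV T3, 145, 146 and 142 in TRB vehicle and 35.7, 35.7 and 30.6 in TRB T3 libraries. The EV groups did not overlap, yet the EV effect of -0.16 did not pass (adjusted p = 0.0726), and the interaction was -1.93 ± 0.08. VIM, the mesenchymal filament vimentin, stood at 7.46, 6.73 and 7.26 CPM in EV vehicle, 5.4, 5.22 and 5.06 in EV T3, 7.49, 5.38 and 6.42 in TRB vehicle and 1.11, 0.808 and 0.611 in TRB T3 libraries. Like KRT4, its EV estimate was in the same direction without passing (-0.45, adjusted p = 0.152). For ADAMTS1, a secreted protease of the ADAMTS family, the EV estimate was 0.31 (-0.23 to 0.85) and the TRB effect -2.74 ± 0.31. SNCAIP, which encodes the synuclein partner synphilin, had 37, 39, 70 and 3 counts in the 4 groups, with a T3 to vehicle count ratio of 0.571 in EV cells (95% counting interval 0.355 to 0.921) and 0.0298 in TRB cells (0.00601 to 0.0909). MARVELD1 had an interaction of -2.39 ± 0.29.

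T3 effects reversed in 19 genes, all protein-coding, and most were small. The median absolute interaction was 0.48, and 2 genes reached 1. In 10 of them T3 lowered the level in EV cells and raised it in TRB cells, in 9 the opposite. RASD2, a small GTPase of striatal neurons, had the largest interaction of these (1.87 ± 0.16, adjusted p = 4.55e-16). It stood at 11.8, 11.4 and 11.3 CPM in EV vehicle, 8.87, 7.92 and 7.71 in EV T3, 17.6, 17.5 and 19.5 in TRB vehicle and 45.4, 45.8 and 49.8 in TRB T3 libraries. No 2 groups overlapped. FBXO32, a ubiquitin ligase subunit of muscle wasting, fell by 0.24 ± 0.07 in EV cells and rose by 0.54 ± 0.06 in TRB cells.

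S100A7, the psoriasis-associated calcium-binding protein psoriasin, was among the most abundant of the 19. It stood at 450, 394 and 421 CPM in EV vehicle, 368, 382 and 369 in EV T3, 473, 470 and 452 in TRB vehicle and 636, 592 and 586 in TRB T3 libraries, and its interaction was 0.55 ± 0.06. NFATC2, a calcium-regulated transcription factor, and HMOX1, which degrades heme, had interactions of 0.75 ± 0.12 and 0.66 ± 0.16. At equal depth that of HMOX1 was 0.18 (adjusted p = 0.787). For HMOX1 the TRB effect passed narrowly (adjusted p = 0.0435) and its TRB groups overlapped.

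In the other direction LBH, a transcription cofactor, stood at 39.7, 42.1 and 40.6 CPM in EV vehicle, 48.7, 49.8 and 47.7 in EV T3, 46.7, 47 and 39.9 in TRB vehicle and 27.8, 27.7 and 21.2 in TRB T3 libraries. Its interaction was -1.06 ± 0.11 (adjusted p = 1.98e-12). The histone genes HIST1H3F and HIST1H4E followed, at -0.53 ± 0.07 and -0.51 ± 0.06, and HIST1H4H, not taken by the naming rule, also stood at -0.40 ± 0.06. HIST1H4E stood at 267, 262 and 264 CPM in EV vehicle, 305, 323 and 316 in EV T3, 323, 298 and 273 in TRB vehicle and 254, 262 and 235 in TRB T3 libraries. Levels of EV T3 and TRB vehicle overlapped, and TRB T3 libraries lay below both. Histone genes are near-identical copies, so the counting can divide their reads in uncertain ways. MVD, a cholesterol synthesis enzyme, and RDH10, which makes the precursor of retinoic acid, had interactions of -0.49 ± 0.07 and -0.47 ± 0.06. The remaining 8 were LARP4, LYNX1, MEPCE, PRKDC, ROMO1, SULF2, TRRAP and WDFY3, with absolute interactions between 0.29 and 0.48.

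**Figure D3:**
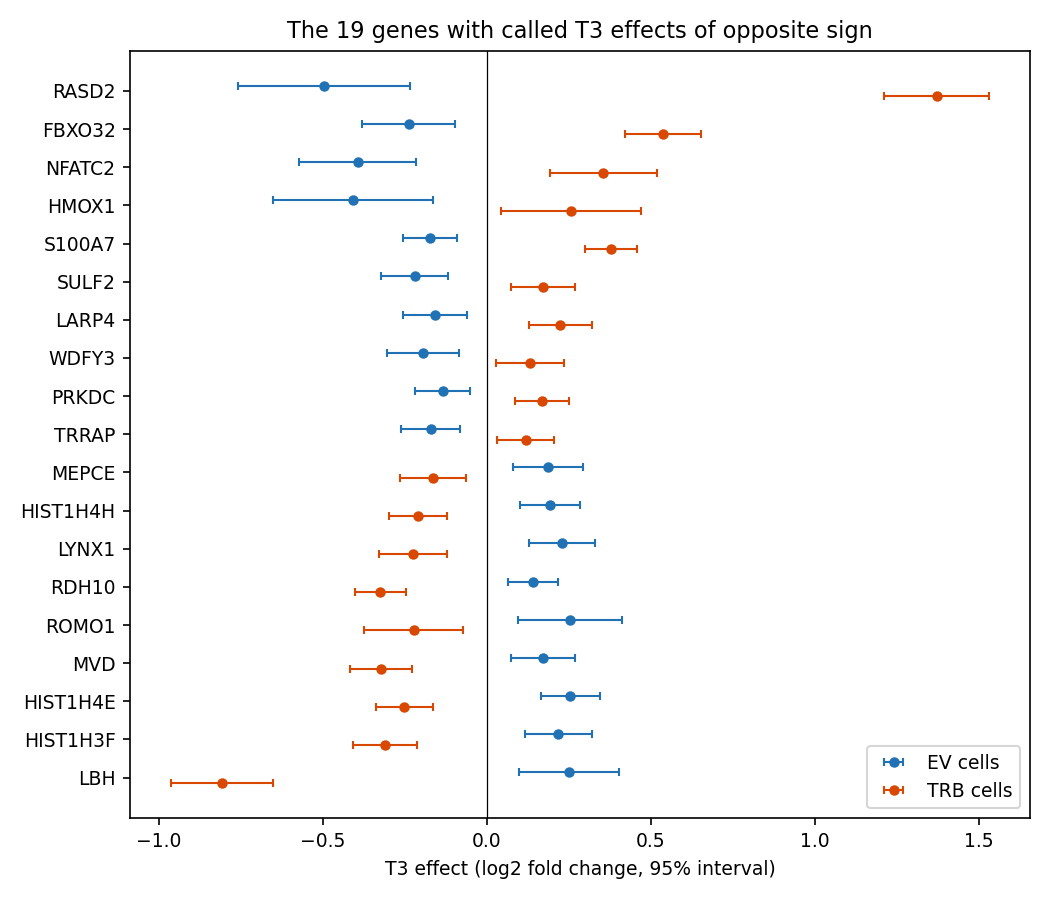
T3 effect as a log2 fold change with its 95% interval (x axis) in EV and TRB cells for the 19 genes with called effects of opposite sign (y axis), ordered by the interaction. RASD2 and LBH stand apart at the 2 ends, and in most of the others both effects lie within 0.5 of 0.

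How many genes reversed depended on single libraries. It was 6 when EV vehicle replicate 1, EV vehicle replicate 3 or EV T3 replicate 2 was left out, 9 by DESeq2 and 2 at equal depth. Over 20 other ways of fitting, HIST1H4E and S100A7 met the rule in 19, NFATC2 in 18, RASD2 in 14, LBH in 13, and HMOX1 and LARP4 in 7. The 2 effects kept opposite signs in all 20 for each of the 19 genes other than HMOX1, where they did in 19.

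The 40 lost genes had a median EV effect of -0.18 where the interaction was more positive and 0.26 where it was more negative. Those with a more positive interaction (15) were led by ITGA2B, the platelet integrin alpha IIb, and the zinc finger genes ZFP3 and ZNF605, and those with a more negative one (25) by ANOS1, SPSB2 and HIST1H4A. ANOS1, an adhesion protein of migrating neurons, stood at 2.17, 2.5 and 2.42 CPM in EV vehicle, 4.24, 4.7 and 4.4 in EV T3, 6.84, 5.49 and 5.6 in TRB vehicle and 5.23, 4.31 and 4.8 in TRB T3 libraries. Levels with T3 overlapped between the pools, and those with vehicle were higher in TRB cells. The interaction was -1.21 ± 0.29 (adjusted p = 0.000858). HIST1H4A had an interaction of -0.61 ± 0.11 and SPSB2 one of -1.06 ± 0.27. ITGA2B (0.90 ± 0.34, adjusted p = 0.0439) missed the threshold under 12 of 20 alternatives. The class held 12 genes by DESeq2 and 3 at equal depth, and leaving out 1 library moved the count to 11 (EV T3 replicate 2), 13 (EV vehicle replicate 3), 17 (EV vehicle replicate 1) or 65 (EV T3 replicate 1).

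Seen from EV cells, of 413 genes that T3 raised there 211 (51.1%) were amplified, 9 reversed, 25 lost and 168 had no called interaction. Of 247 that it lowered the counts were 122 (49.4%), 10, 15 and 100. In 202 genes T3 acted in both pools with the same sign and the interaction did not pass, 125 up and 77 down. Their median effects were 0.26 in EV and 0.31 in TRB cells for those up, and -0.23 and -0.30 for those down. The interaction interval lay within 1.5-fold for 175 of the 202. Metallothioneins, which bind zinc and copper, gave an example. MT2A averaged 124 CPM in EV vehicle, 316 in EV T3, 166 in TRB vehicle and 443 in TRB T3 libraries. It rose by 1.34 ± 0.05 in the EV pool and 1.41 ± 0.04 in the TRB pool, with an interaction of 0.07 (95% interval -0.05 to 0.19). Of 5 genes tested on that list 4 rose in EV and 3 in TRB cells, where 2.84% and 22.4% of all genes did. MT1X alone had a called interaction (0.65 ± 0.16, adjusted p = 0.00131), which was 0.42 (adjusted p = 0.112) when EV vehicle replicate 3 was left out and 0.46 (adjusted p = 0.222) at equal depth. Metallothionein genes are close copies of each other, so their counts are uncertain.

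The vehicle levels of the pools were also counted by class. Of the 211 amplified genes with a more positive interaction, 100 were lower in TRB vehicle than in EV vehicle libraries at the same threshold and 13 were higher, while 179 were higher in TRB T3 than in EV T3 libraries. Of the 122 with a more negative one, 37 were higher and 23 lower with vehicle, a less uneven split, and 108 were lower in TRB T3 than in EV T3 libraries. Among the 1473 new genes with a more positive interaction 306 were lower and 117 higher with vehicle, and among the 1470 with a more negative one 365 were higher and 111 lower. For comparison, of the 11079 genes without a called interaction 515 were lower and 581 higher with vehicle, and 1550 were higher in TRB T3 than in EV T3 libraries. The vehicle libraries enter both the vehicle comparison and the interaction with opposite signs, which favours these counts, so they are given as a description.

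Interferon gamma response and antigen presentation genes had the highest share of more positive interactions among the lists with 5 or more genes tested. Of 40 genes listed, 30 passed the filter on low counts and were tested. Of these 30, 23 had a more positive interaction and none a more negative one, 13 amplified and 10 new, with a median of 0.45. Among interferon gamma targets with too few counts to be tested, CXCL9 had 0, IDO1 3 and CXCL10 29 counts in TRB T3 libraries. The shares over all genes tested, for this list and those below, were 12.3% more positive and 11.6% more negative. These lists were chosen with earlier results of the data known, so their shares are descriptions. IRF1, the transcription factor at the head of this response, stood at 54.1, 59.3 and 54 CPM in EV vehicle, 78.7, 81.3 and 77.6 in EV T3, 34.6, 32 and 34.3 in TRB vehicle and 135, 135 and 131 in TRB T3 libraries. It had the order of MGLL and an interaction of 1.49 ± 0.08 (adjusted p = 1.66e-24). The guanylate-binding proteins GBP3, GBP2 and GBP1, which act against intracellular microbes, had interactions of 1.11 ± 0.08, 0.92 ± 0.08 and 0.98 ± 0.10. Type I interferon genes were more mixed, with 11 of 42 more positive, 4 more negative and a median of 0.06. PARP14 (0.63 ± 0.06) and TRIM22 (0.54 ± 0.10) were amplified, ISG20 was new and higher (1.95 ± 0.35), and OAS1 was new and lower (-0.70 ± 0.13). At equal depth ISG20 stood at 1.29 (adjusted p = 0.227) and OAS1 at -0.40 (adjusted p = 0.225). Of 20 NF-kB targets 7 were more positive and 0 more negative (median 0.12), among them TNFAIP2 (1.11 ± 0.06) and CSF1 (1.17 ± 0.11), the growth factor of macrophages.

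**Figure D4:**
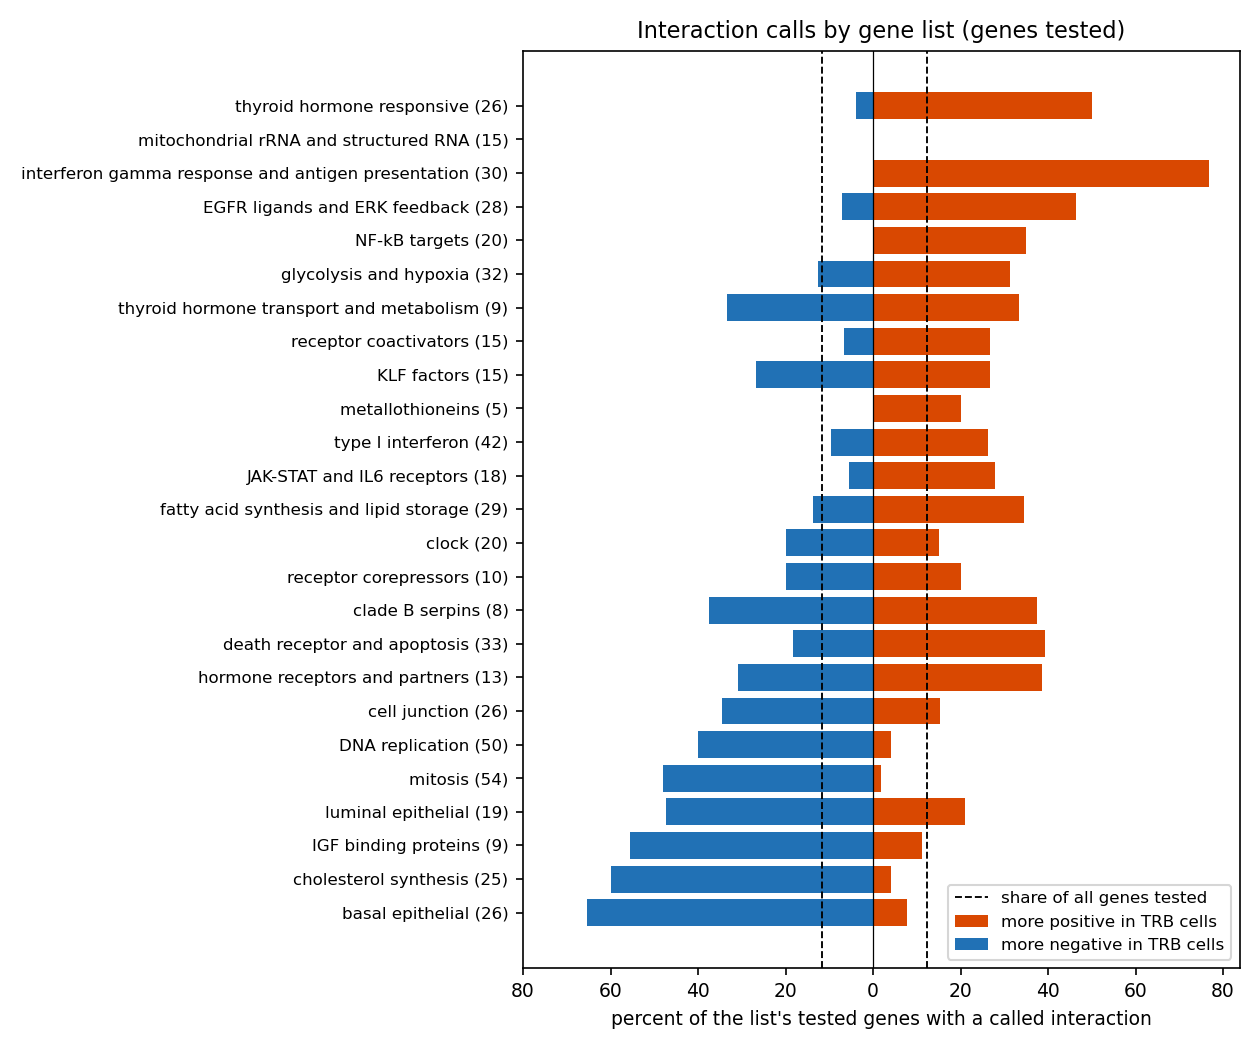
Percent of the tested genes of each list (x axis) with a called interaction, more positive to the right and more negative to the left, with the number tested in brackets and dashed lines at 12.3% and 11.6%, the shares over all genes. Interferon gamma genes reach 76.7% on the positive side and basal epithelial genes 65.4% on the negative side.

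Cell death genes divided, with 13 of 33 more positive and 6 more negative. TNFSF10, the death ligand TRAIL, was amplified, from 0.99 ± 0.06 in EV to 2.67 ± 0.05 in TRB cells, and TNFRSF10D, a decoy receptor for it, was new (EV 0.25, TRB 2.23). BCL2L11, another BH3-only gene, was new at 0.60 ± 0.09. Of 28 EGFR ligand and ERK feedback genes 13 were more positive and 2 more negative (median 0.29). DUSP4 and EGR1 rose more in TRB cells (interactions 0.59 ± 0.07 and 0.67 ± 0.09), whereas DUSP5, a nuclear ERK phosphatase, fell in TRB cells (-1.47 ± 0.11). Of 18 JAK-STAT and IL6 receptor genes 5 were more positive and 1, the inhibitor SOCS3, more negative (-0.97 ± 0.18); PIM1 and CISH, both STAT targets, stood at 0.94 ± 0.16 and 0.72 ± 0.13.

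Basal epithelial genes had the highest share of more negative interactions among the same lists. Of 26 tested, 17 had a more negative interaction and 2 a more positive one, 8 amplified and 11 new, with a median of -0.49. KRT5, the keratin that defines the basal layer, stood at 1155, 1160 and 1161 CPM in EV vehicle, 988, 1019 and 991 in EV T3, 963, 856 and 880 in TRB vehicle and 242, 231 and 197 in TRB T3 libraries. TRB T3 stood far below the other groups, and the interaction was -1.80 ± 0.07 (adjusted p = 5.37e-23). KRT17, KRT16 and SFN, a stress-induced 14-3-3 protein, had -1.53 ± 0.06, -1.74 ± 0.10 and -1.22 ± 0.06. KRT16 and KRT17 have close pseudogene copies, so their counts are uncertain. Luminal genes did not move the opposite way as a group: 9 of 19 were more negative and 4 more positive (median -0.20). GATA3, a luminal transcription factor, fell in TRB cells (interaction -0.84 ± 0.09), as did AGR2 (-0.78 ± 0.10), while PRLR, the prolactin receptor, and SPDEF rose (0.80 ± 0.07 and 0.55 ± 0.06). Of 26 junction genes 9 were more negative and 4 more positive (median -0.13), with the tight junction gene CLDN1 at -1.32 ± 0.11, the desmosomal cadherin DSC2 at -0.73 ± 0.06 and TJP3 at -0.51 ± 0.07.

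Cholesterol synthesis genes leaned to a more negative interaction: 15 of 25, with 1 more positive and a median of -0.38. They were mostly new (13), with HMGCS1 and FDFT1 amplified and MVD reversed. LSS, which closes the sterol rings, stood at 217, 222 and 222 CPM in EV vehicle, 214, 213 and 202 in EV T3, 253, 231 and 249 in TRB vehicle and 154, 147 and 153 in TRB T3 libraries. The interaction was -0.61 ± 0.06 for LSS, -0.75 ± 0.06 for HMGCS1, -0.53 ± 0.05 for FDFT1 and -0.86 ± 0.08 for INSIG1, a sterol sensor. Fatty acid and lipid storage genes leaned the other way, 10 of 29 more positive and 4 more negative with a median of 0.05. Beside MGLL these included ME1, malic enzyme, CPT1A, which admits fatty acids to mitochondria, and ACSL1 (0.75 ± 0.08, 0.50 ± 0.06 and 0.46 ± 0.06). Of 32 glycolysis and hypoxia genes 10 were more positive and 4 more negative (median 0.10): VEGFA, PFKFB3 and HK2 at 1.76 ± 0.07, 1.57 ± 0.09 and 0.60 ± 0.06, and LDHA at -0.56 ± 0.06.

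Mitosis genes were more negative in 26 of 54 cases and more positive in 1, with 24 new, 3 amplified and a median of -0.20. T3 lowered 46 of the 54 in TRB cells, against 21.9% of all genes, and 5 in EV cells, against 1.7%. The effects were small, led by CDC25B (-0.54 ± 0.06), ANLN (-0.43 ± 0.05), CDC20 (-0.37 ± 0.06) and NDC80 (-0.36 ± 0.06). Of 50 DNA replication genes 20 were more negative and 2 more positive (median -0.18). TYMS, thymidylate synthase, stood at 246, 248 and 251 CPM in EV vehicle, 231, 251 and 253 in EV T3, 254, 238 and 235 in TRB vehicle and 170, 165 and 158 in TRB T3 libraries, so that 3 groups overlapped and TRB T3 lay below them. TK1 and SLBP, the histone mRNA binding protein, had -0.35 ± 0.07 and -0.42 ± 0.08, and GINS3 rose (0.78 ± 0.13). In bulk RNA fewer cells in cycle and less RNA per cell cannot be told apart.

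Smaller families split. Of 9 genes on the list of IGF binding proteins and receptors 5 were more negative and 1 more positive (median -0.31). The list also holds IGF2BP2 and IGF2BP3, which encode RNA-binding proteins, and IGF2BP3 was among the more negative ones (-0.31 ± 0.11). IGFBP7 rose in TRB cells (6.79, adjusted p = 1.96e-08 by edgeR), but its interaction could not be estimated with any precision (SE 9323). IGFBP3, which binds IGF outside the cell, was amplified downward at -1.64 ± 0.06, IGFBP4 and IGFBP5 were new and lower (-0.86 ± 0.10 and -1.27 ± 0.20), and IGF2R rose (0.31 ± 0.06). Of 8 clade B serpins 3 were more positive and 3 more negative, with SERPINB1, an inhibitor of neutrophil proteases, amplified at 1.97 ± 0.06, SERPINB9 new at 0.93 ± 0.25, SERPINB6 new at 0.28 ± 0.07 and SERPINB7 new and lower (-1 ± 0.32). SERPINB7 missed the threshold in 5 of 20 alternatives (DESeq2, equal depth, and with EV vehicle replicate 2, TRB T3 replicate 2 or TRB vehicle replicate 2 left out). Of 15 Krüppel-like factors 4 moved in each direction, with KLF13 amplified like KLF9 (0.59 ± 0.08), KLF10 new and higher (0.99 ± 0.10), KLF5 amplified downward (-0.36 ± 0.06) and KLF6 new and lower (-0.40 ± 0.07). Of 20 clock genes 3 (15%) were more positive and 4 (20%) more negative, the latter including NR1D2, PER1 and NFIL3 (-0.41 ± 0.09, -0.81 ± 0.18 and -0.54 ± 0.12). At equal depth these stood at -0.46, -0.78 and -0.46 and did not pass (adjusted p = 0.0983, 0.155 and 0.212).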

How the data were processed

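For each of 12 libraries the authors deposited raw counts by gene symbol. Per the submitters' processing notes, CASAVA 1.7, STAR 2.7, HTSeq 0.10 and DESeq2 were used with build hg38, without a role for each. The libraries came from a NEBNext Ultra II kit, per the labels' protocols. Whether counting used strand was not stated, which leaves genes that overlap, or lie antisense to, another gene uncertain. The authors also deposited a table of normalized values, a score here, which equalled the counts times 1 factor per library to within 1 and served only as a check of columns. Lines that name no gene held 31.9% to 39.2% of the counts and were left out.

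The 12 libraries were fitted with edgeR 4.0.16 and limma 3.58.1 under R 4.3.3. Low genes were removed with filterByExpr (minimum 10, total 15). TMM factors and a robust quasi-likelihood fit of 4 group means (8 residual degrees of freedom) were used, with Benjamini-Hochberg adjustment over 14549 genes. CPM use TMM factors. SE is the log2 value over the root of F. Count ratios carry exact 95% intervals for counting error alone, as PCR copies cannot be recognised. The steps were tested on simulated data. Of 56832 names 29503 matched a GENCODE annotation of hg38 by symbol and 856 through an older one, for coordinates, type and GC content. No library pair of a group was a duplicate.

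Genes named were THRB, THRA, KLF9, HR, THRSP, DIO1, RXRA and NCOR1; by class and direction those with the highest lower 95% bound of the absolute interaction at 2 CPM or more in the highest group (5 each for amplified, new and reversed, 3 each for lost); and up to 4 genes with the smallest p per list, others being named as counts require. Some genes of the lists are not reported here by name. Members, classes and the 31 lists were chosen with earlier results of these data known. Alternatives were DESeq2 1.42.0, RLE factors, no filter, CPM above 1 in 3 libraries, the replicate number as a block, thinning of all libraries to 4241863 counts, a test of protein-coding genes alone, each library left out in turn, an unadjusted p for the T3 effect within a pool and, chosen after seeing the data, GC offsets.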

Additional observations from a re-analysis of the deposited data

Results flagged for a closer look

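The T3 effect differed between the pools in 3470 genes by the test of the interaction itself (edgeR, adjusted p below 0.05), and the genes named by rule that did so are given here with their interaction on the log2 scale. Of the receptor genes and T3 targets, THRB stood at 1.41, THRA at -1.23, KLF9 at 1.32 and HR at 1.7. Amplified increases were C15orf59 (4.74), RCSD1 (3.28), MGLL (2.62), BMF (2.58) and CD14 (2.45), and amplified decreases SLITRK6 (-3.34), EDN2 (-3.03), FGFBP1 (-2.21), RGS2 (-2.14) and SLC4A4 (-2.27). New increases were APLN (7.30), OLFML2B (5.89), NES (4.10), IL6R (4.45) and RP1L1 (4.23), and new decreases SNCAIP (-4.07, on 3 counts in TRB T3 libraries), ADAMTS1 (-3.06), VIM (-2.45), MARVELD1 (-2.39) and KRT4 (-1.93). Reversed genes were RASD2 (1.87), FBXO32 (0.78), NFATC2 (0.75), S100A7 (0.55), HMOX1 (0.66), LBH (-1.06), HIST1H3F (-0.53), HIST1H4E (-0.51), MVD (-0.49) and RDH10 (-0.47). Lost genes were ITGA2B (0.90), ZFP3 (0.49), ZNF605 (0.47), ANOS1 (-1.21), SPSB2 (-1.06) and HIST1H4A (-0.61). Groups of 3 libraries are too small for a test of single outlying libraries.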

How the results depend on the processing

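Equal depth changed most: thinned, the interaction was called for 1664 genes, with 96 amplified, 1494 new, 2 reversed and 3 lost, and 45.5% of the 3470 calls were shared. Fewer reads in every library but 1 are part of that alternative. DESeq2 gave 217 amplified, 9 reversed and 12 lost genes, and no filter on low counts gave 25 dampened or lost. With an unadjusted p for the effect within a pool 681 genes were amplified, 2527 new, 150 reversed and 104 dampened or lost. That alternative keeps the interaction calls and loosens only the threshold within a pool, so it moves genes between classes by design. Leaving out each library in turn gave 2910 to 3553 interaction calls, 180 to 338 amplified, 2591 to 3016 new, 6 to 27 reversed and 11 to 65 dampened or lost genes. The other counts stayed within 1.5 times those reported, with RLE factors, CPM above 1 in 3 libraries, protein-coding genes and GC offsets. Replicate numbers did not pair the libraries: 0 of 18 same-numbered pairs correlated above 0.1 in their deviations from group means (-0.12 to 0.08, against -0.05 to 0.14 for other pairs), and with the replicate number as a block 3493 genes were called, 327 amplified, 2961 new, 21 reversed and 37 lost. Of 40 called genes named by rule, 33 stayed called in the same direction in all 20 alternatives for single genes. The exceptions were ITGA2B, ZFP3, ZNF605, KLF9, HMOX1, ANOS1 and SPSB2, the last 4 only at equal depth, where KLF9 (1.41, adjusted p 0.166), ANOS1 (-1.28, 0.0891) and SPSB2 (-1.12, 0.148) kept their size and HMOX1 (0.18, 0.787) did not. All of it rests on 1 pool per vector.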
